A study of Homo sapiens with 6 samples.

Results

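The ligands of NKG2D, an activating receptor of natural killer cells and some T cells, are 8 related human genes: ULBP1, ULBP2, ULBP3, RAET1E, RAET1G, RAET1L, MICA and MICB. They were taken by gene symbol from the annotation of the array's probe sets, and 7 of the 8 had a named probe set. RAET1G had none and is not analysed here. The 7 genes had 13 of 53617 probe sets, of which 7 belonged to MICB, among 14884 named genes in all. The family was chosen by the measured difference of ULBP1 between the groups compared here, and its other genes by their relation to ULBP1. The values of the ligands in this comparison are therefore a description, with standard errors and 95% intervals but no p-value.

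The samples were total RNA of BE(2)-C_tetoff_KDM4C cells, made from the human neuroblastoma line BE(2)-C, in which a tet-off switch controls added KDM4C, an eraser of lysine 9 methylation on histone H3. One group, 3 arrays, came from cells grown without doxycycline, which leaves the construct on. The other, 3 arrays, came from cells grown with doxycycline, which keeps it off. Both groups carry the construct and were cultured for 6 days in the same medium with dialyzed serum. Cells lacking the construct were not analysed here, so KDM4C induction and the absence of doxycycline cannot be told apart. The sources used here do not give the promoter behind the construct or say whether the line is 1 clone. The p-values below measure the spread between these samples, since separate cultures are not named.

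NKG2D ligands resemble the heavy chain of MHC class I molecules but present no peptide. They are scarce on most healthy cells and appear on cells under stress, after DNA damage, viral infection or malignant change, and mark such cells for killing by natural killer cells. MICA and MICB lie in the MHC region and span the membrane. The ULBP and RAET1 genes lie together on the other arm of chromosome 6, and ULBP1, ULBP2, ULBP3 and RAET1L encode proteins held in the membrane by a glycosylphosphatidylinositol (GPI) anchor, while RAET1E encodes a transmembrane form. In neuroblastoma, a tumour of the sympathetic nervous system that often shows little MHC class I, such ligands are studied as targets of natural killer cells.

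The arrays behaved alike. Values are the authors' processed expression values. Their log base is not stated and was taken as 2 from their range of 2.12 to 14.3, and every fold and log2 difference here rests on that. The arrays had medians of 3.94 to 3.96 and correlations over all probe sets of 0.991 to 0.993 within groups and 0.990 to 0.991 between them. KDM4C was at 8.97, 9.08 and 9.02 without doxycycline, against 7.71, 7.77 and 7.80 with it. Its log2 difference was 1.27 (SE 0.07, limma adjusted p = 0.00788), the direction the labels give, and how much of the signal comes from the construct and how much from the native gene was not tested. That call was lost in limma (adjusted p up to 0.0696) when 1 array was left out, namely replicate 2 or 3 grown without doxycycline or replicate 1 or 2 grown with it. All 9 measured neuroblastoma markers of 12 lay above the array median, such as HAND2 at 10.16 without and 10.20 with doxycycline. Limma's threshold was passed by 0 of them, beside 0.341% of all probe sets. An unadjusted p below 0.05 was met by 2 of them as higher and 3 as lower, where 12.4% of all probe sets met it (6.7% higher and 5.73% lower). The enzymes of catecholamine synthesis TH and DBH had log2 differences of 0.34 and 0.28, and the granins CHGA and CHGB and the neuronal STMN2 had -0.40, -0.34 and -0.23. Their part in the ligand results was not tested. Of 11 markers of natural killer and T lymphocytes, 5 were measured. Their log2 values summed to 17.4 to 17.5 without and 17.9 to 18.1 with doxycycline. A sum of log2 values of different probe sets does not measure lymphocyte content. Of the 5 markers, NKG7, PRF1, GNLY and CD2 lay below the array median without doxycycline, and CD8A was at 4.10 without and 4.29 with doxycycline. None passed, and an unadjusted p below 0.05 was met by 0 higher and 1 lower, CD8A.

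ULBP1 was far higher without doxycycline. Its values were 5.01, 5.21 and 5.50 in the 3 arrays without doxycycline, against 2.95, 3.42 and 3.00 in the 3 arrays with it. The groups did not overlap: the lowest array without doxycycline lay well above the highest with it. The means were 5.24 ± 0.25 and 3.12 ± 0.26 (SD, n = 3 each), a log2 difference of 2.12 (SE 0.17, 95% interval 1.71 to 2.52), or 4.34-fold. On the scale of the whole array, the mean without doxycycline stood at the 67.7th percentile of all probe sets, and the mean with doxycycline at the 14.2nd. No detection calls were used here, so whether ULBP1 was above background with doxycycline cannot be said, and a summarized array value near the floor is known to understate a fold change. In bulk RNA, more cells with the transcript and more transcript per cell cannot be told apart.

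The sequences upstream of ULBP1 and of its paralogs ULBP2 and ULBP3 are shown because these neighbouring genes differed unequally between the groups. Each is the 250 bases before the gene's start, 5′ to 3′ on the gene's strand, from RefSeq (GRCh38.p14). Capitals mark TGACG on either strand (CGTCA where it lies on the other strand), the core of the cAMP response element that factors of the CREB and ATF family bind. ULBP1 lies on the plus strand (chr6:149963693-149963942), ULBP2 on the plus strand (chr6:149941764-149942013) and ULBP3 on the minus strand (chr6:150069122-150069371).
ULBP1: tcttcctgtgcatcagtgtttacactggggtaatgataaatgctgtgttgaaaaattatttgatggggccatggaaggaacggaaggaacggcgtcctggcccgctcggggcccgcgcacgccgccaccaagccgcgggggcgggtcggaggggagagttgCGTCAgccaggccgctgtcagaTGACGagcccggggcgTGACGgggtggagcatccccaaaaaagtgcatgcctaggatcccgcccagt
ULBP2: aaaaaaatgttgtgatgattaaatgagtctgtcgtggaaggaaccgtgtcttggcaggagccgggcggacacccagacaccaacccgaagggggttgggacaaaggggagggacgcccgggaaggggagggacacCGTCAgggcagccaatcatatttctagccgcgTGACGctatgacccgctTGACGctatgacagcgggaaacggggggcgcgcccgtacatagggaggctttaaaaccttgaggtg
ULBP3: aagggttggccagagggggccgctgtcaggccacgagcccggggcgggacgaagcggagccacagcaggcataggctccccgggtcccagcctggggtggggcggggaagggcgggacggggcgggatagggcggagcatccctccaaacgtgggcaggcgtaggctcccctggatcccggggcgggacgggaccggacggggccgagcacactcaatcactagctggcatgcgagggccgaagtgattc

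TGACG occurred 3 times in the ULBP1 window, starting at positions -89, -67 and -51, where -1 is the last base before the gene's start. The ULBP2 window also held 3, at -115, -83 and -66, and the ULBP3 window held 0. Of 35116 RefSeq windows of the same length, 21.2% held at least 1 match and 1.01% held 3 or more. The windows of RAET1E, RAET1G, RAET1L, MICA and MICB held 0. The full element TGACGTCA, present in 1.65% of all windows and containing the core, had no match in the window of any ligand. The same was true of TGATGNAAT, a composite element of ATF4 and C/EBP factors that 0.888% of windows held, searched on both strands. The AP-1 site TGANTCA, in 6.57% of windows, did not occur in those of the 3 ULBP genes, and 1 match each lay in the RAET1L window and in 1 of the 3 windows RefSeq gives for RAET1E. The E-box CACGTG, in 6.34% of windows, occurred in 1 RAET1E window and in that of no other ligand. The GC box GGGCGG, bound by SP1 and SP3, was in 42.6% of windows and occurred 2 times upstream of ULBP1, once upstream of ULBP2 and 6 times upstream of ULBP3. ULBP1 and ULBP2 thus held equal numbers of TGACG. The part of any of these motifs in the differences between the groups was not tested.

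ULBP2, the GPI-anchored ligand next to ULBP1 on the chromosome, was lower without doxycycline in these arrays. It was at 3.82, 3.86 and 3.64 without doxycycline, against 3.94, 4.12 and 4.23 with it. These groups did not overlap either, although the highest array without doxycycline and the lowest with it lay close together. The log2 difference was -0.32 (SE 0.10, 95% interval -0.56 to -0.08). An interval that leaves out 0 was found for 12.4% of all probe sets (5.73% lower), so no change of ULBP2 is read from it. Its group means stood near the array median, at the 45.1st percentile without and the 53.4th with doxycycline. ULBP2, RAET1G and RAET1L are close in sequence, and how much of a probe set's signal comes from the others was not tested.

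ULBP3 was at 4.07, 3.86 and 3.996 without doxycycline, against 4.01, 3.63 and 4.09 with it. The arrays of both groups were intermixed, with the lowest and the highest value both among those with doxycycline. Its log2 difference was 0.07 (SE 0.13, 95% interval -0.25 to 0.38), the widest interval of the ligands other than ULBP1. RAET1L, also known as ULBP6, was at 3.89, 3.85 and 3.91 without doxycycline, against 3.77, 3.90 and 3.85 with it. These groups overlapped, and the log2 difference was 0.05 (SE 0.07, 95% interval -0.11 to 0.20).

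RAET1E, also known as ULBP4, had values near the bottom of the array's range in both groups. It was at 3.05, 3.03 and 3.02 without doxycycline, against 2.86, 3.06 and 3.00 with it, and the groups overlapped. The log2 difference was 0.06 (SE 0.07, 95% interval -0.12 to 0.24), with group means at the 8.89th percentile of all probe sets without doxycycline and the 6.70th with it.

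MICA, the best-studied of the stress-induced ligands, was at 3.74, 3.86 and 3.70 without doxycycline, against 3.68, 3.64 and 3.69 with it. The groups did not overlap, but the gap between the nearest arrays was far smaller than the range of the 3 arrays without doxycycline. The log2 difference was 0.10 (SE 0.07, 95% interval -0.07 to 0.27). The brightest MICB probe set was at 4.41, 4.40 and 4.47 without doxycycline, against 4.42, 4.41 and 4.45 with it. All 6 arrays thus lay within a narrow band, with a log2 difference of 0.00079 (SE 0.06, 95% interval -0.14 to 0.14). Of the 7 MICB probe sets, 1 repeats the values of another in every array and was counted once. The 6 distinct ones had log2 differences of 0.00079 to 0.09 and overlapping groups, and that of the brightest was -0.01 after quantile normalization. MICA and MICB vary in sequence between people, and the probe sequences were not used here.

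**Figure D1:**
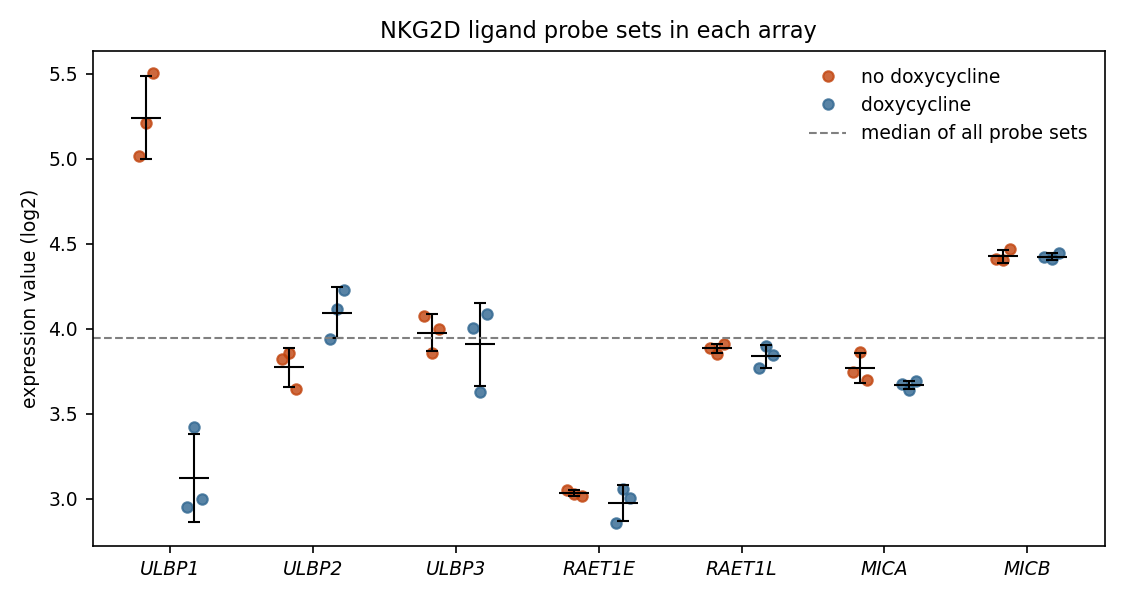
Log2 expression value of the probe set that stands for each of the 7 measured NKG2D ligands in each array. Orange points are the 3 arrays without doxycycline, blue points the 3 with doxycycline, black bars the mean ± SD, and the dashed line the median of all probe sets (3.945). ULBP1 lies at 5.01 to 5.50 without and 2.95 to 3.42 with doxycycline, and every other ligand lies between 2.86 and 4.47.

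Across the family, 1 of 7 ligands, ULBP1, had an adjusted p below 0.05 in limma, where 0.341% of all probe sets did (0.248% higher and 0.0933% lower). Nothing is read from this count, since ULBP1 was selected on it, and with any 1 array left out 0 of the 7 passed. Groups did not overlap in 3 of the 7, with ULBP1 and MICA higher and ULBP2 lower without doxycycline, where 19.3% of all probe sets had such groups (10.2% higher and 9.09% lower). The median log2 difference of the 7 ligands was 0.06, beside -0.0020 over all named genes. Leaving ULBP1 aside, the upper ends of the 95% intervals were 0.38 or less, while the lower end for ULBP1 was 1.71. ULBP1 was selected on this difference, so nothing is read from that gap either. The group means of 4 of the 7 ligands without doxycycline, and of 5 of 7 with it, lay below the array median, where a difference in a transcript at background would not be detectable.

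**Figure D2:**
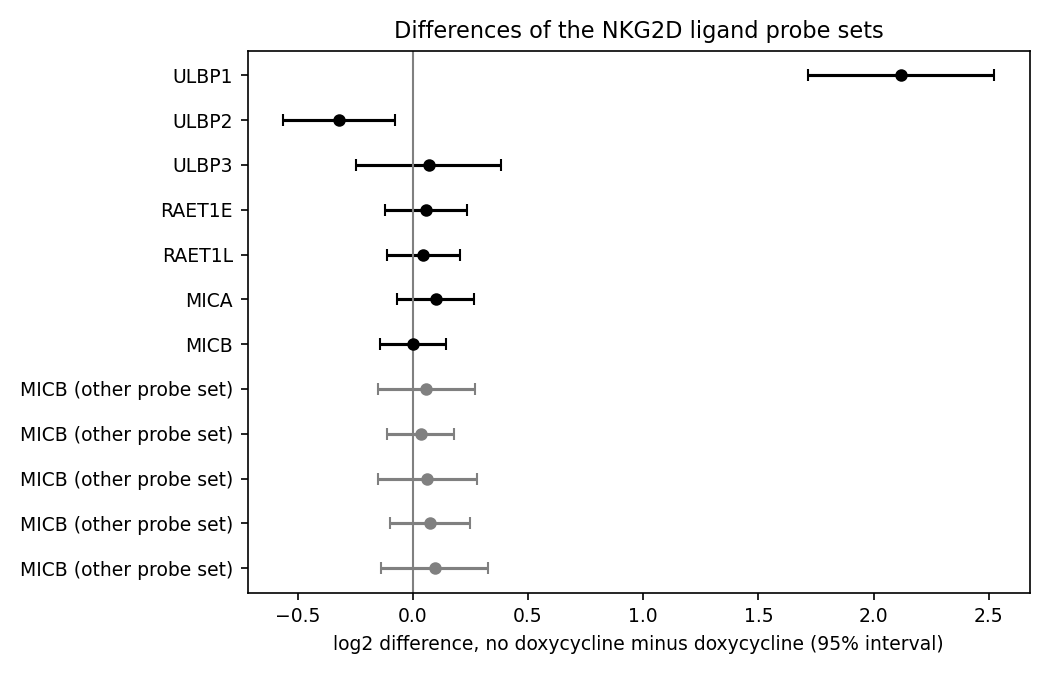
Log2 difference, no doxycycline minus doxycycline, of the 12 distinct NKG2D ligand probe sets (horizontal axis), with 95% intervals of the limma fit. Black points stand for their gene, and grey points are the other MICB probe sets. ULBP1 stands at 2.12 and ULBP2 at -0.32, and the intervals of the remaining probe sets include 0. An interval that leaves out 0 equals an unadjusted p below 0.05 in limma, which 12.4% of all probe sets met.

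The genes beside ULBP1 had smaller differences than ULBP1. ULBP1 was selected on its difference, so nothing is read from that gap. In chromosome order the locus ran from RAET1E through RAET1G, ULBP2, ULBP1, the pseudogene RAET1K and RAET1L to ULBP3. RAET1K was at 3.32 in both groups, with a log2 difference of 0.0020 (95% interval -0.17 to 0.18). Of 11 measured genes at this locus that are not ligands, 0 passed limma's threshold, beside 0.341% of all probe sets. Their differences ran from -0.26 (RMND1, a mitochondrial protein) to 0.42 (MTHFD1L, a mitochondrial folate enzyme, limma adjusted p = 0.0775). An unadjusted p below 0.05 in limma was met by 4 higher and 1 lower of these 11. Of all probe sets 12.4% met it (6.7% higher and 5.73% lower). Groups did not overlap in KATNA1, NUP43, MTHFD1L, AKAP12 and ZBTB2, all higher, and overlapped in the rest. Of all probe sets 19.3% had such separate groups (10.2% higher and 9.09% lower). What sets these neighbours apart was not tested. KATNA1, a subunit of the microtubule-severing protein katanin, was at 0.39 (adjusted p = 0.154). Around MICA and MICB, 0 of 12 measured neighbours passed, with differences of -0.24 (PSORS1C2) to 0.21 (MCCD1) and 0 at an unadjusted p below 0.05.

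**Figure D3:**
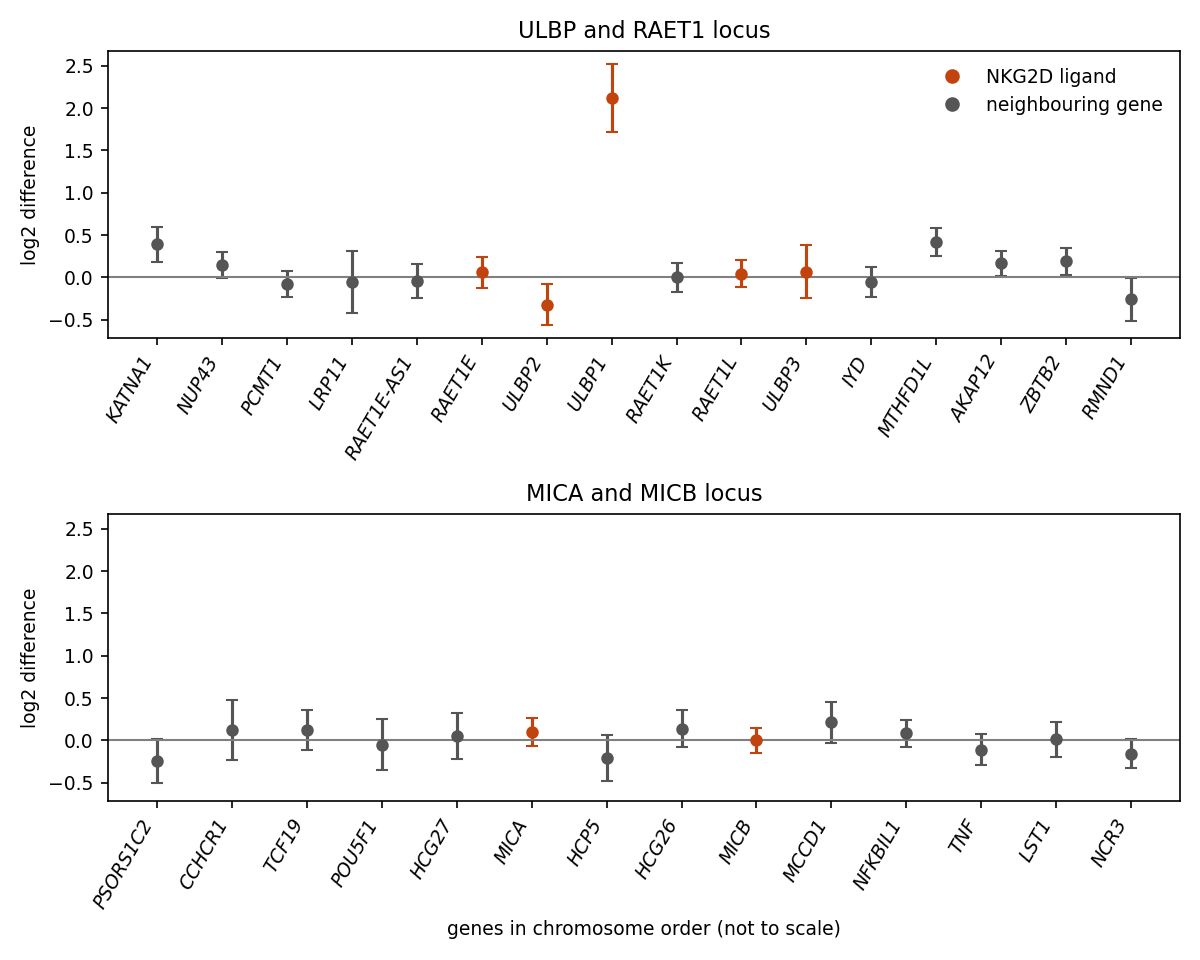
Log2 difference, no doxycycline minus doxycycline (vertical axis), with 95% intervals, of measured genes in chromosome order at the ULBP and RAET1 locus (top) and the MICA and MICB locus (bottom). Orange points are NKG2D ligands and grey points their neighbours. ULBP1, which was selected on its difference, is at 2.12, and the other genes lie between -0.32 and 0.42.

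Genes of the ATF4 response, which induces amino acid synthesis and stress genes and is known from other human cells to drive ULBP1 transcription, were higher without doxycycline. Of 12 measured genes of that list, 8 rose at an adjusted p below 0.05 in limma and 0 fell, where 0.248% of all probe sets rose, with a median log2 difference of 1.17. The largest was that of SESN2, which restrains mTOR signalling under stress, at 1.63 (SE 0.12). DDIT3, the transcription factor CHOP, was at 1.36 and TRIB3, a pseudokinase that restrains ATF4, at 1.31. DDIT4, ATF5, GDF15, STC2 and ASNS rose by 1.30, 1.26, 1.19, 1.16 and 1.00. ATF4 mRNA itself was at 10.16 ± 0.07 without and 9.85 ± 0.08 with doxycycline, a log2 difference of 0.31 (SE 0.07) that did not pass (limma adjusted p = 0.179). The count of 8 rests on all 6 arrays, since 3 genes passed when replicate 3 grown with doxycycline was left out, 1 when replicate 1 grown without doxycycline was, and 0 when any other single array was. This list was drawn up with the rise of its genes in these samples already known, so its count is no independent evidence of its direction. The part of ATF4 in the ULBP1 difference was not tested.

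Of 23 factors reported to set NKG2D ligand levels, 18 were measured, with a median log2 difference of 0.04. In limma 0 passed, beside 0.341% of all probe sets, so that count is no result about these factors. The same share stands beside the counts of 0 in the lists below. An unadjusted p below 0.05 in limma was met by 3 higher and 1 lower, beside 12.4% of all probe sets. Groups did not overlap in 5 as higher and 1 as lower, beside 19.3% of all probe sets (10.2% higher and 9.09% lower). The list also held ATF4, at its largest positive difference. ATR, a kinase of the DNA damage response, had the largest negative one, at -0.18 (SE 0.06, adjusted p = 0.323). SP1 was at 0.21 and EP300, a histone acetyltransferase, at 0.15. RBM4, a splicing factor, and SPCS2, a signal peptidase subunit, both found in human cells to support ULBP1, were at -0.13 and 0.01, and HDAC3, a histone deacetylase reported to restrain ULBP genes, was at 0.14. These last 5 were named in addition to the rule for named genes.

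Ligands can be cut from the cell surface by metalloproteases. Of 7 measured sheddases and their inhibitors of 10 listed, 0 passed in limma (an unadjusted p below 0.05 was met by 2 higher and 0 lower, beside 12.4% of all probe sets), with a median of 0.00039. TIMP1, an inhibitor of metalloproteases, was at 8.09 ± 0.13 without and 7.77 ± 0.17 with doxycycline (log2 difference 0.32, adjusted p = 0.309). TIMP3 was at -0.11, though its dimmer probe set was at 0.10. The 4 measured proteases, named beyond the rule, had differences of both signs. ADAM10 and ADAM17, which are known to shed MICA and ULBP proteins, were both at -0.10. ADAM9 was at 0.26 (limma adjusted p = 0.238) and MMP14 at 0.20 (limma adjusted p = 0.461). Of the 7 genes, groups did not overlap in 2 as higher (ADAM9 and TIMP1) and 1 as lower (TIMP3), beside 19.3% of all probe sets. Of the genes for making and attaching GPI anchors, 6 of 29 were measured and 0 passed (an unadjusted p below 0.05 was met by 1 higher and 0 lower, beside 12.4% of all probe sets), with PGAP2 at 0.20 and PGAP3 at -0.23, both of which remodel the anchor.

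Natural killer cells read a target cell through further ligands. Of 11 measured activating and adhesion ligands, 0 passed in limma, beside 0.341% of all probe sets, and the median was -0.09. An unadjusted p below 0.05 in limma was met by 0 of them, beside 12.4% of all probe sets. NECTIN3 was at 0.14 and ICAM3, an adhesion ligand of the integrin LFA-1, at -0.25. PVR and NECTIN2, ligands of the activating receptor DNAM-1 and named beyond the rule, were at 7.70 and 6.27 without and 7.79 and 6.35 with doxycycline. NCR3LG1, the NKp30 ligand B7-H6, also beyond the rule, was at 7.55 without and 7.66 with it. All 7 measured inhibitory ligands had negative differences, with a median of -0.09, beside -0.0020 over all named genes. None of the 7 passed the threshold, and 0 met an unadjusted p below 0.05 in limma, beside 12.4% of all probe sets. Without doxycycline 4 of the 7 lay below the array median, so nothing is read from the shared sign. The most negative was VTCN1 at -0.24. It was at 3.09 without and 3.32 with doxycycline, both below the array median, and its groups overlapped. CD47, which signals to macrophages and is named beyond the rule, was at 10.41 without and 10.55 with doxycycline.

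Of 17 genes of MHC class I and antigen presentation, 4 were measured, which leaves out the HLA class I genes themselves. None passed in limma, and an unadjusted p below 0.05 was met by 1 higher and 0 lower, beside 12.4% of all probe sets. ERAP1, a peptide-trimming aminopeptidase, was at 5.62 ± 0.03 without and 5.22 ± 0.16 with doxycycline (log2 difference 0.40, SE 0.09, adjusted p = 0.175), while its relative ERAP2 was at -0.10. B2M, the light chain of class I molecules and named beyond the rule, was at 9.14 without and 9.18 with doxycycline. Of 10 death receptor genes only FADD and CFLAR were measured, at -0.14 and -0.05, and 0 passed (0 at an unadjusted p below 0.05). Related class I genes and the RAET1K pseudogene, 6 in all, had a median of 0.01, with HFE at 0.06 and CD1B at -0.17. Of these, 0 passed (0 at an unadjusted p below 0.05). All 6 lay below the array median without doxycycline, where a difference in a transcript at background would not be detectable. Of the receptor side, the adaptors HCST (DAP10), which pairs with NKG2D in human cells, and TYROBP (DAP12), which also pairs with it in mice, were measured, at 3.70 and 3.35 without and 3.86 and 3.35 with doxycycline, both below the array median, and 0 passed (0 at an unadjusted p below 0.05).

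**Figure D4:**
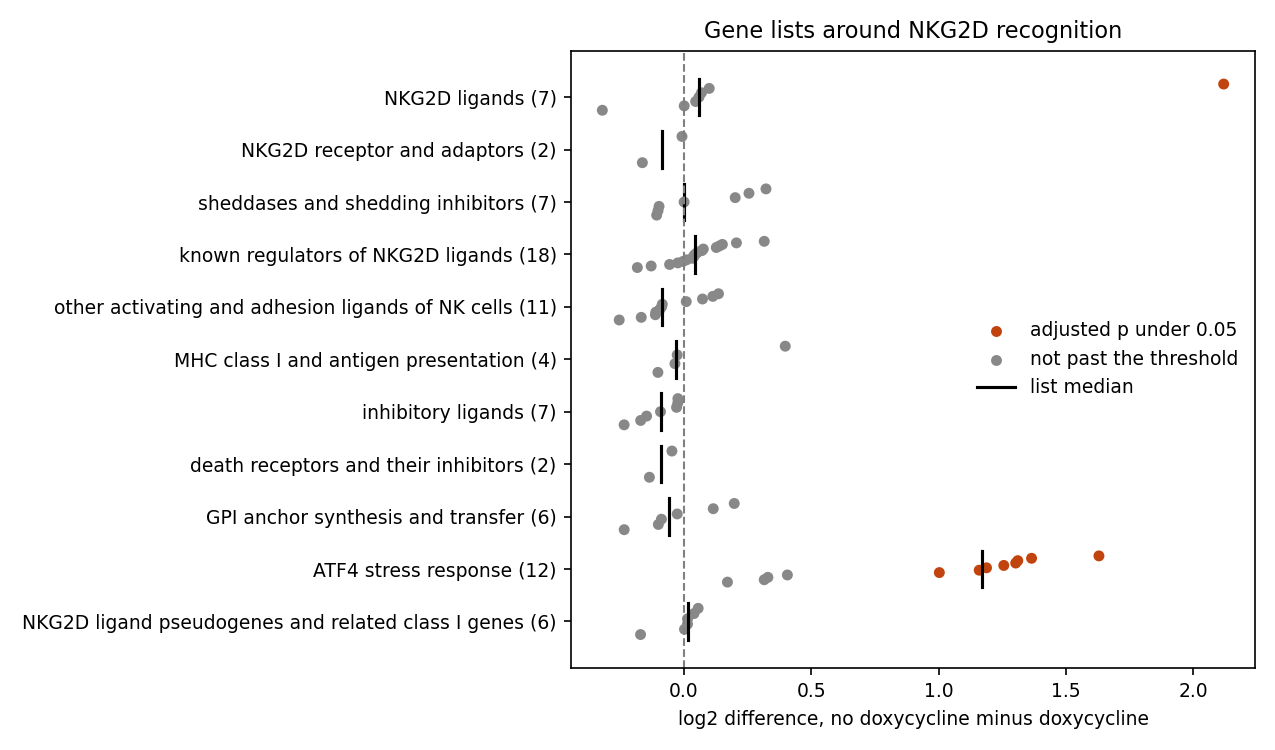
Log2 difference, no doxycycline minus doxycycline (horizontal axis), of each measured gene in the gene lists, with the number of measured genes in brackets. Orange points had a limma adjusted p below 0.05, grey points did not, and the vertical bar is the list's median. Past the threshold lie ULBP1 at 2.12 and 8 genes of the ATF4 list at 1.00 to 1.63. ULBP1 and the ATF4 list were chosen with their differences already known, so their colour is no independent evidence.

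The named genes whose values over the 6 arrays were most like those of ULBP1 were found by the root mean square difference of log2 values, each gene centred on its own mean, among 14883 genes. They were JUN (0.299), SESN2 (0.343), rows named MIR3143 (0.400) and MIR7-3 (0.402), TFPI2 (0.406) and TRIB3 (0.429). JUN, a subunit of AP-1, was at 5.96, 6.33 and 6.41 without doxycycline, against 4.62, 4.25 and 4.40 with it. SESN2 was at 7.51, 7.72 and 7.80 without doxycycline, against 6.25, 5.93 and 5.97 with it. All 6 had a smaller log2 difference than ULBP1, from 1.31 for TRIB3 to 1.81 for JUN. ULBP1 was selected on its difference, so nothing is read from this order. Labelled long RNA was hybridised to the rows with microRNA names, so these are not values of mature microRNAs. With 2 groups the likeness reflects mostly the difference between them.

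**Figure D5:**
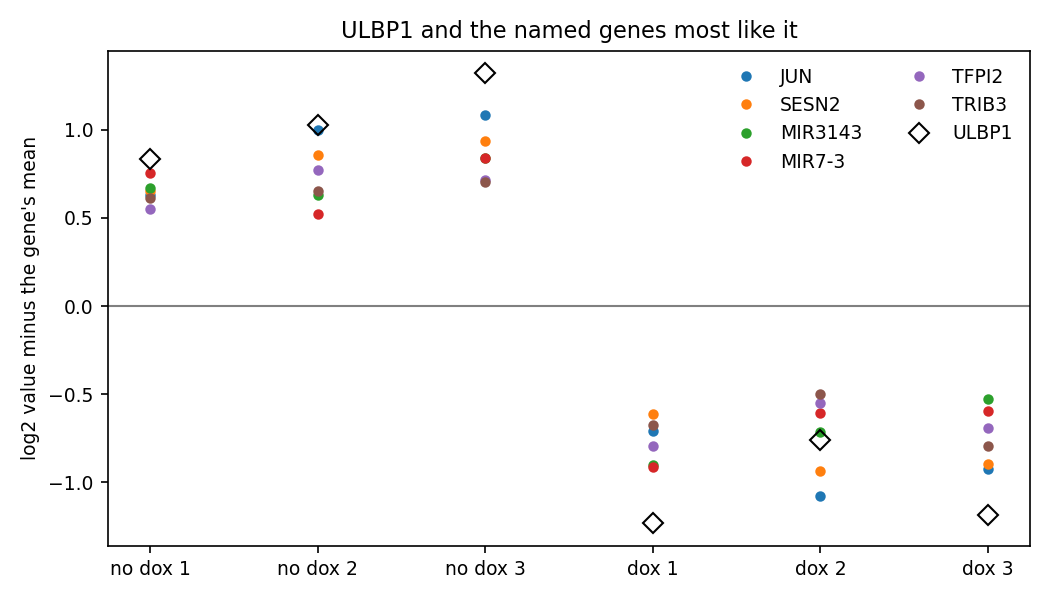
Log2 value minus the gene's own mean (vertical axis) in each array (horizontal axis) for ULBP1 (open diamonds) and the 6 named genes most like it (coloured points). All 7 genes are above their mean in the 3 arrays without doxycycline and below it in the 3 with doxycycline, and ULBP1 spans 2.55 from its lowest to its highest array.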

How the data were processed

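Total RNA of 3 samples per group was measured on Affymetrix whole-transcript arrays. The deposited table held 1 value per probe set and array, taken as log2 from the range of the deposited values, brought to a common scale by the authors with Partek, according to the submitters' processing notes. The sources used here do not give the background correction, the normalization or the build. Arrays have no read depth, and their number limits the precision. Names came from the platform annotation at GEO (16098 of 53617 probe sets with 1 symbol, 0 with several), and symbols were checked against RefSeq by Entrez identifier.

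The limma package (3.58.1, under R 4.3.3) was fitted with lmFit and eBayes to all 53617 probe sets, no doxycycline minus doxycycline, without a covariate or filter, with Benjamini-Hochberg adjustment over all of them and a threshold of 0.05. The fit was tested on simulated data with independent noise, which does not measure how far the calls depend on single arrays. The brightest probe set stood for a gene. Named were all ligands, KDM4C, in each list the genes past the threshold or else the largest difference in each direction, the 6 genes most like ULBP1 and the neighbours of the ligands. Ligands and lists were chosen with earlier results of these data known. Promoter windows came from RefSeq. Alternatives were quantile normalization, bright probe sets only, trend with robust moderation, the mean of a gene's probe sets, the replicate number as a block, and leaving out each array. Same-numbered arrays did not deviate together (correlations of deviations -0.0119, -0.0144 and 0.0407), so the numbers were not taken as pairs.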

Additional observations from a re-analysis of the deposited data

How the results depend on the processing

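The ULBP1 difference was 2.11 to 2.12 under the alternatives with all arrays and 1.99 to 2.27 with 1 array left out. ULBP2 ranged from -0.40 to -0.25, ULBP3 from -0.07 to 0.16, RAET1E from 0.00015 to 0.10, RAET1L from 0.01 to 0.08, MICA from 0.05 to 0.13 and MICB from -0.02 to 0.01 with 1 array left out. The mean of all MICB probe sets gave 0.055, and quantile normalization gave -0.01 for MICB and kept the direction of the other 6. With only bright probe sets, ULBP1 and MICB remained and the other 5 ligands gave no value. Probe sets past the threshold in limma numbered 183 in the main setting, 311 with bright probe sets only, 385 with trend and robust moderation, and 0 to 15 with 1 array left out. No ligand passed with any 1 array left out. With the replicate block, 0 probe sets and 0 genes of the lists passed (6251 probe sets and 17 list genes at an unadjusted p below 0.05), KDM4C was at 1.27 (adjusted p = 0.118), and ULBP1 was at 2.12 (SE 0.15). With every replicate number once in each group, the block leaves each difference as it is and alters only its error. The KDM4C difference was 1.24 to 1.29, with an adjusted p of 0.0311 to 0.0696, and 0 to 3 list genes passed with 1 array left out. Only 3 arrays per group and the absence of detection calls limit what can be said of the dim ligands.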
